A study of Mus musculus with 8 samples.

Results

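The data described here are the RNA-Seq libraries of quadriceps muscle from the 4 mice of the series that received vehicle in place of chemotherapy, 4 of the 8 samples in all. They were chosen by the group name in their sample titles, and are named Vehicle 1 to Vehicle 4. All mice of the series were CD2F1 males, given as 8 weeks old for the dosing. The Vehicle mice are also listed with 5 weeks of treatment, so 8 weeks is not the age at which muscle was taken. The other 4 mice received Folfiri, that is 5-fluorouracil at 30 mg/kg, leucovorin at 90 mg/kg and CPT-11 at 24 mg/kg, by injection for up to 5 weeks, and the level of no gene in them is given here. The Vehicle libraries held 8505985 to 16303015 counts over 12896 listed genes, and the Folfiri libraries 11921092 to 21056818. Levels are given in CPM, a gene's count divided by the library's total count and multiplied by 1000000. A count of 3, taken as the floor of detection, was worth 0.184 to 0.353 CPM. Errors are the SD over the 4 libraries, each from a separate mouse.

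Quadriceps is a limb muscle made mostly of multinucleate fibres, whose cytoplasm is filled with sarcomeres. In a sarcomere, thick filaments of myosin pull on thin filaments of actin, troponin and tropomyosin, between Z-discs joined by the giant protein titin. Contraction starts when the ryanodine receptor releases calcium from the sarcoplasmic reticulum and ends when the pump SERCA returns it. Fast fibres use the myosin heavy chains IIb, IIx and IIa (Myh4, Myh1 and Myh2) and, in the IIb type, rely on glycolysis and creatine kinase. Slow fibres use Myh7 and their own troponins, and oxidise more fat.

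Counts were concentrated on few genes. The most abundant gene held 5.60% ± 1.41 of the counts, the 10 most abundant 25.8% ± 3.64, the 30 most abundant 37.8% ± 4.58 and the 100 most abundant 48.3% ± 3.73 (SD, n = 4). When genes were ordered by mean CPM, 120 genes held 50% of the counts and 3555 held 90%. Vehicle 2 was the least concentrated library. Its own 184 most abundant genes were needed for 50% of its counts, against 107, 75 and 114 in Vehicle 1, 3 and 4. The 10 genes highest by mean held 27.2%, 20.7%, 29.3% and 26% of the counts of Vehicle 1, 2, 3 and 4. Of the listed genes 12060 reached a mean of 1 CPM, 7511 reached 10 CPM, 1285 reached 100 CPM and 85 reached 1000 CPM. Only 2 listed genes had no count in any Vehicle library.

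**Figure D1:**
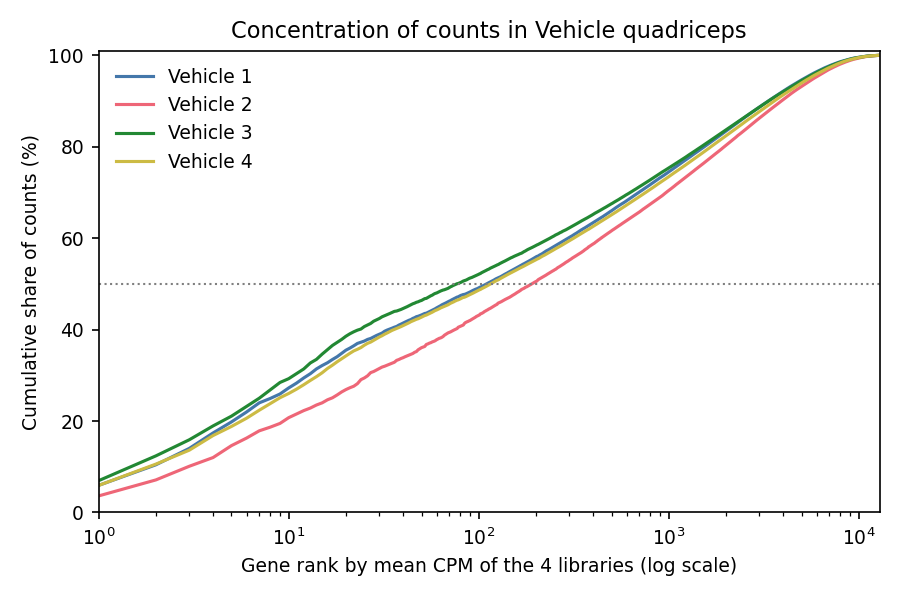
Cumulative share of each library's counts (y axis, percent) over genes ordered by mean CPM of the 4 Vehicle libraries (x axis, gene rank on a log scale), 1 line per library. The curve of Vehicle 2 runs lowest, with 31.5% of its counts on the first 30 genes, against 39.0%, 42.4% and 38.4% in Vehicle 1, 3 and 4.

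Myh4, which encodes the myosin heavy chain of type IIb fibres, was the most abundant gene in each of the 4 libraries. Its position on mm9 is chromosome 11, bases 67051314 to 67073949. Its level was 59207 CPM in Vehicle 1, 36140 CPM in Vehicle 2, 69511 CPM in Vehicle 3 and 59132 CPM in Vehicle 4. The mean was 55998 ± 14107 CPM (SD, n = 4), and Vehicle 2 was the lowest library. Atp2a1, the fast-fibre calcium pump SERCA1, came second at 44975, 34983, 54200 and 46597 CPM in Vehicle 1 to 4. Acta1, skeletal muscle α-actin and the main thin filament protein, was next at 35962, 29914, 35291 and 30501 CPM. Its 4 values lay closer together than those of Myh4, with a coefficient of variation (CV, the SD as a percent of the mean) of 9.57% against 25.2%.

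The sequences just upstream of the annotated starts of 3 of these genes are shown because a TATA element lies there, a motif at which the general transcription machinery assembles. They are the last 60 bases before the RefSeq start on GRCm38.p6, 5′ to 3′ on the gene's strand, with the motif in capitals.
Myh4 (chr11:67237752-67237811, plus strand): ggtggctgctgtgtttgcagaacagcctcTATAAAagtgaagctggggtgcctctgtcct
Ckm (chr7:19411034-19411093, plus strand): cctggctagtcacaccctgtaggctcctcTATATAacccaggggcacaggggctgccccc
Acta1 (chr8:123894776-123894835, minus strand): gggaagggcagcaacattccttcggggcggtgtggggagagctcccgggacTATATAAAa
The motif began 31 bases before the start in Myh4 and Ckm. It began 9 bases before the annotated start in Acta1, where TATATA and TATAAA overlap. TATAAA or TATATA was searched on the gene's strand in the 50 bases before the start, using the first start the table gives for each gene. It was found in 4 of the 24 genes among the 30 most abundant that had an entry, Myh1 being the fourth, or 16.7%. Of the 9608 listed genes with an entry, 211 had it, or 2.20%, and of those ranked 31 to 100 it was in 3 of 50, or 6%. These shares describe letters in a window and were not tested.

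The 30 most abundant genes were mostly parts of the contractile machinery and its energy supply. By the gene lists used here, 7 encode thin filament proteins, 4 thick filament proteins, 4 proteins of the Z-disc or titin system, and 4 calcium handling proteins. A further 5 encode enzymes of glycolysis and glycogen breakdown (Gapdh is among them and also among the common reference genes), 2 subunits of ATP synthase, 1 creatine kinase and 1 the mitochondrial ADP and ATP carrier. The remaining pair, Pde4dip and Cmya5, were in no list. Pde4dip encodes the anchoring protein myomegalin and had 6687 ± 609 CPM, and Cmya5 encodes the Z-disc and costamere protein myospryn and had 6640 ± 432 CPM (SD, n = 4 each). At the edge of this group, Atp5a1 ranked 30 with a mean of 3080 CPM, and the muscle intermediate filament gene Des, the next in order, had 3053 ± 460 CPM, a gap smaller than the SD of either gene.

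Among the thin filament genes, Tpm1 (α-tropomyosin) had 28762 ± 6639 CPM and was lowest in Vehicle 2, at 19038 CPM. The fast troponin subunits, which make the filament respond to calcium, did not spread alike. Tnnt3, which anchors the complex to tropomyosin, had 20002, 15890, 18004 and 17551 CPM in Vehicle 1 to 4. Tnnc2, the subunit that binds calcium, had 9649, 8067, 18293 and 14585 CPM. Tnni2, the inhibitory subunit, had 9751, 8123, 16120 and 12707 CPM. Tnnc2 and Tnni2 were thus both higher in Vehicle 3 and 4 than in Vehicle 1 and 2, while the values of Tnnt3 did not separate these pairs of libraries. Neb encodes nebulin, the giant protein that runs along the thin filament, and had the opposite order, with 13217 and 12595 CPM in Vehicle 1 and 2 and 8317 and 9312 CPM in Vehicle 3 and 4.

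Of the thick filament genes, Mylpf, the regulatory light chain of fast myosin, followed Myh4 at 8329 ± 1596 CPM, and Mybpc2, the fast myosin-binding protein C, at 7026 ± 2012 CPM (SD, n = 4 each). Myh1, the type IIx heavy chain, ranked 24, but 1 library decided its place. It had 8823 CPM in Vehicle 2, against 2652, 2464 and 3798 CPM in Vehicle 1, 3 and 4. Of the Z-disc and titin genes, Ttn had 22899 ± 2777 CPM, Actn3 (the fast-fibre α-actinin) 9355 ± 3081 CPM and Xirp2 (an actin-binding protein of striated muscle) 4452 ± 1090 CPM. Among the calcium genes, Pvalb (parvalbumin, the calcium buffer of fast fibres) had 7395, 4726, 11477 and 8449 CPM in Vehicle 1 to 4. Ryr1, the calcium release channel, had 6106, 6662, 9724 and 9376 CPM, and Casq1, which stores calcium in the reticulum, had 3685 ± 1029 CPM.

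The energy genes among the 30 most abundant were led by Ckm, muscle creatine kinase, with 21680, 16436, 21230 and 17943 CPM in Vehicle 1 to 4. Aldoa (aldolase) had 9797 ± 1389 CPM, Pygm (muscle glycogen phosphorylase) 9618 ± 1570 CPM, Eno3 (muscle enolase) 6326 ± 852 CPM and Pfkm (muscle phosphofructokinase) 4963 ± 754 CPM (SD, n = 4 each). These 5 genes were each lowest in Vehicle 2. Atp5b and Slc25a4, the ATP synthase β subunit and the carrier that exchanges ADP and ATP across the inner mitochondrial membrane, had 3947 ± 573 and 3291 ± 262 CPM. Slc25a4 was among the steadier of the abundant genes, with a CV of 7.95%.

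**Figure D2:**
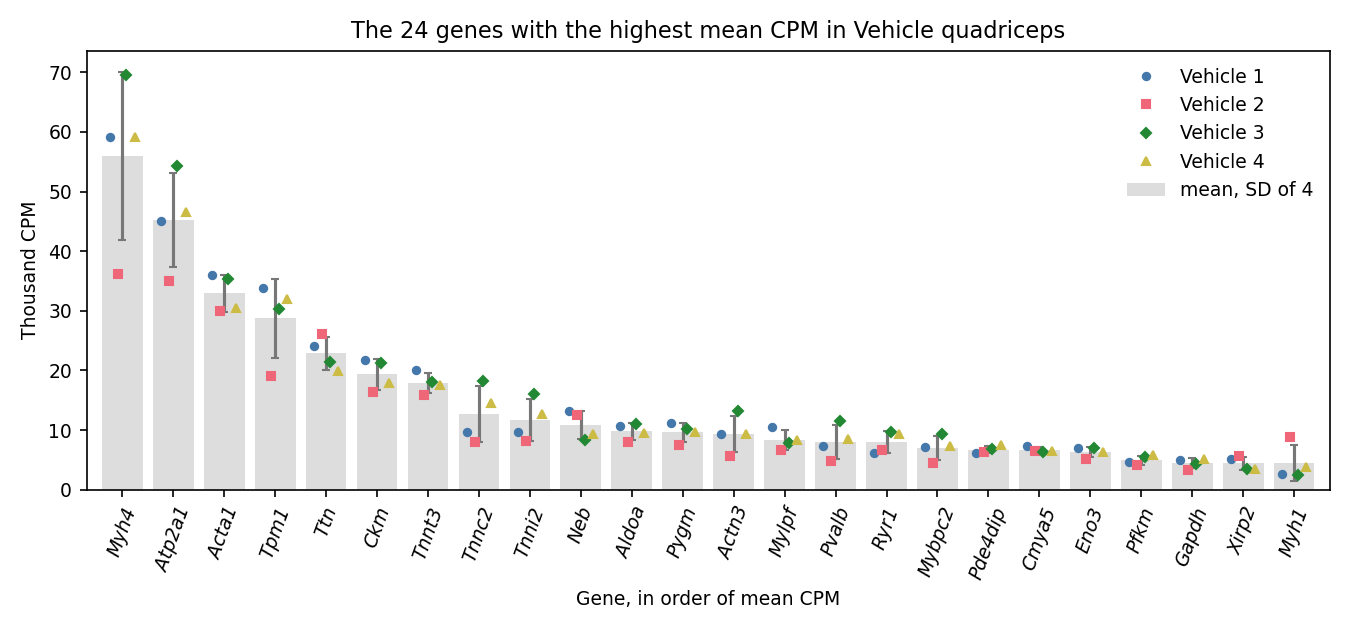
Levels (y axis, in units of 1000 CPM) of the 24 genes with the highest mean CPM, in that order (x axis), with bars for the mean, error bars for the SD and points for the 4 Vehicle libraries. Myh4 leads at a mean of 55998 CPM, Vehicle 2 lies lowest for 8 of the first 10 genes, and Myh1 is highest in Vehicle 2, at 8823 CPM.

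Counts grow with the length of a transcript, so the genes were also ranked per 1000 bases of the gene length that the table gives, scaled to the same sum in each library (TPM). On this scale Acta1 came first, at 48094 ± 4079 TPM (SD, n = 4). It was followed by the fast troponins Tnnc2, Tnni2 and Tnnt3, at 41831 ± 14902, 40083 ± 11501 and 36581 ± 3209 TPM, which do not differ beyond their spread. Ckm, Atp2a1, Mylpf, Myh4, Pvalb and Tpm1 completed the first 10, between 31330 and 20112 TPM. Of the 30 genes highest by CPM, 21 were among the 30 highest per length and 19 per 1000 bases of the longest GENCODE coding sequence, a length known for 30 of these 30 genes. Long genes dropped. Ttn, with a listed length of 104320 bases, ranked 5 by CPM and 215 by TPM, and Neb 10 by CPM and 82 by TPM. The table does not define its length. If it covers all exons of a gene, genes with several isoforms, such as Tpm1, are understated.

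The 3 fast troponin genes encode the subunits of 1 complex, and on the TPM scale they made up similar parts of their sum, Tnnt3 32% ± 7.01, Tnni2 33.5% ± 2.17 and Tnnc2 34.5% ± 4.89 (SD, n = 4). The ratio of Tnnc2 to Tnni2 stayed between 0.954 and 1.11 in the 4 libraries. The ratio of Tnnc2 to Tnnt3 varied more, with 0.782 and 0.822 in Vehicle 1 and 2 and 1.65 and 1.35 in Vehicle 3 and 4. Of the summed TPM of the 4 adult myosin heavy chains, Myh4 made up 94.8%, 72.8%, 95.6% and 92.3% in Vehicle 1 to 4. Myh1 made up 4.26%, 17.8%, 3.40% and 5.95%, Myh2 0.951%, 8.65%, 0.814% and 1.63%, and Myh7 0.0374%, 0.752%, 0.144% and 0.0828%. Vehicle 2 thus had the lowest share of the IIb chain and the highest share of each of the other 3. Acta1 held 99.8% ± 0.0824 of the summed TPM of Acta1 and Actc1, the cardiac form, whose coding sequence is very like that of Acta1.

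Small genes inside larger ones need care on the length scale. Of 146 listed miRNA genes, host transcripts not counted, 139 lie within another listed gene on the same strand, and all 48 listed snoRNA genes do. Mir7225, 54 bases long and inside Pde4dip, reached rank 20 per length with 106 CPM, and Mir677, 78 bases long and inside Atp5b, reached rank 28 with 103 CPM (both picked once their values were known). Reads of the host gene and of the small gene cannot be told apart in these counts.

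The 6 gene lists that cover contraction and its fuel together held 41.4% ± 4.27 of the counts with 113 listed genes (SD, n = 4). The thin filament list held 12.0% ± 1.24, the thick filament list 8.71% ± 1.14, calcium handling 7.52% ± 1.37, the Z-disc, titin and intermediate filament list 5.73% ± 0.332, glycolysis and glycogen 5.01% ± 0.600, and phosphagen and adenylate buffering 2.46% ± 0.235. Most of these shares came from a few members. Without the 10 most abundant genes, in both the lists and the library totals, the 6 lists together held 21.1% and the thin filament list 0.718%.

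The oxidative lists held less. The subunits of complexes II to V held 2.08% ± 0.344 of the counts, led by Atp5b, Atp5a1 and Sdha, the last a subunit of succinate dehydrogenase with 1356 ± 279 CPM. Complex I, the NADH dehydrogenase, held 0.865% ± 0.135 over 37 genes. The tricarboxylic acid cycle with pyruvate dehydrogenase held 1.19% ± 0.276, and fatty acid uptake and oxidation 0.877% ± 0.432 (SD, n = 4 each). All 21 genes of the tricarboxylic acid cycle list were highest in Vehicle 2 and lowest in Vehicle 3 by library totals. Scaled by TMM, 15 of the 21 were highest in Vehicle 2, 5 in Vehicle 1 and 1 in Vehicle 4, and all 21 were still lowest in Vehicle 3. In the fatty acid list 22 of 23 genes were highest in Vehicle 2 by library totals and 21 by TMM. These counts stand against a background that depends on the scaling. Of all 7511 genes with a mean of at least 10 CPM, 43.4% were highest in Vehicle 2 by library totals and 23.9% by TMM, and 41.1% were lowest in Vehicle 3 by library totals and 28.4% by TMM. Pdk4, the kinase that turns pyruvate dehydrogenase off, had 1264, 2710, 634 and 884 CPM in Vehicle 1 to 4. Lpl, the lipase that frees fatty acids from blood lipids, had 604, 2091, 470 and 568 CPM. Mb, myoglobin, which stores oxygen, had 1630, 4137, 804 and 1948 CPM.

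Among the complex I genes, Ndufa4, now also counted as a subunit of complex IV, had 725 and 698 CPM in Vehicle 1 and 2, against 248 and 342 CPM in Vehicle 3 and 4. The gene Ndufs1, a core subunit of the complex, had 810 ± 130 CPM. No gene of the mitochondrial chromosome was listed, so the subunits encoded there were not analysed here.

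**Figure D3:**
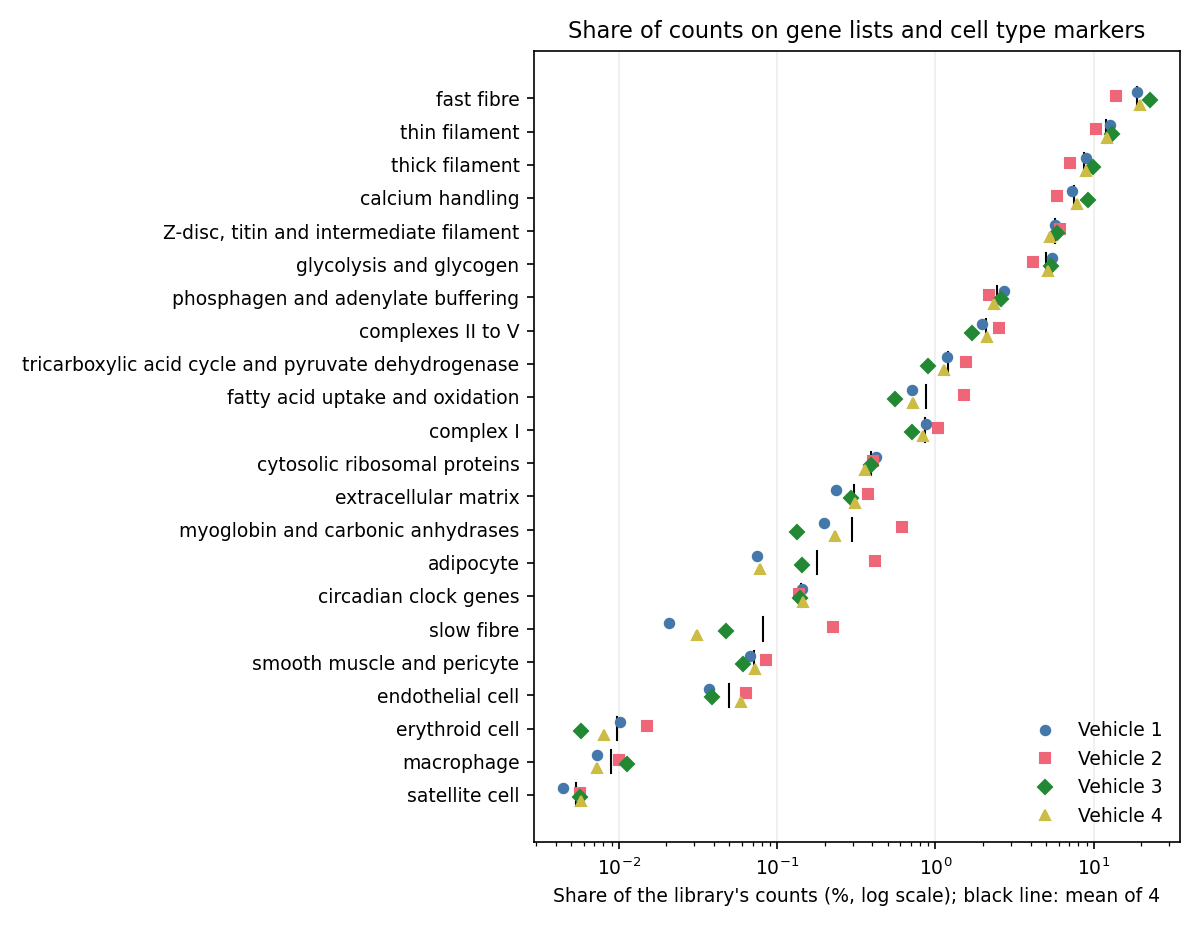
Share of each library's counts (x axis, percent, log scale) on 22 gene lists and cell type marker lists (y axis), with 1 point per Vehicle library and a black line at the mean of the 4. The fast fibre list holds 13.8% to 22.8%, and Vehicle 2 lies to the right of the other 3 libraries for the fatty acid, myoglobin, adipocyte and slow fibre lists.

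Genes of upkeep were far below the contractile genes. The 76 listed cytosolic ribosomal protein genes together held 0.392% ± 0.0246 of the counts, and were led by Rpl4 at 513 ± 63.7 CPM and Rpl3l, a muscle form of Rpl3, at 498 ± 27.4 CPM. Of the elongation factors, Eef1a2, the form used by muscle and nerve, had 1983 ± 226 CPM, and its paralogue Eef1a1, which most other cells use, had 95.8 ± 29.2 CPM. Ribosomal protein genes and Eef1a1 have many near-identical copies in the genome, and how the mapping treated such copies is not given in the sources used here, so their levels are uncertain. The same holds for Rplp0 at 13.9 ± 3.07 CPM, Ppia at 11.5 ± 1.00 CPM and Pgk1 at 27.7 ± 3.25 CPM. The nuclear long noncoding RNA Malat1 ranked 33 with 2539 ± 151 CPM and Neat1 129 with 745 ± 246 CPM (SD, n = 4 each).

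The genes that the study followed by PCR or blot spanned a wide range in Vehicle muscle. The ubiquitin ligases of muscle atrophy, Fbxo32 (atrogin-1) and Trim63 (MuRF1), had 552 ± 52.8 and 344 ± 44.6 CPM. Another F-box gene, Fbxo31, had 148 ± 22.2 CPM, Fbxo30 26.8 ± 6.08 CPM and Fbxo21 28 ± 11 CPM. Mstn, myostatin, which restrains muscle growth, had 161, 65.4, 88.5 and 82.9 CPM in Vehicle 1 to 4, highest in Vehicle 1. The myogenic factors Myod1 and Myog had 18 ± 4.27 and 5.34 ± 0.891 CPM, and the satellite cell factor Pax7 1.46 ± 0.308 CPM. Tbp, the reference of the study's PCR, had 7.67, 10.8, 5.17 and 7.43 CPM in Vehicle 1 to 4, a CV of 29.6%. Genes with a mean of 1 to 10 CPM, as Tbp has, had a median CV of 30.0%. Of the genes of blotted proteins, Sqstm1 (the autophagy receptor p62) had 532 ± 52.3 CPM, Mapk14 (p38α) 231 ± 24.8 CPM and Mapk3 (ERK1) 21.6 ± 4.55 CPM. Akt1 and Akt2 had 54.4 ± 7.94 and 56.8 ± 3.31 CPM, and Stat3 65.4 ± 9.36 CPM. Ppargc1a, the coactivator PGC-1α of mitochondrial biogenesis, had 81.6, 161, 40.3 and 48.8 CPM in Vehicle 1 to 4, and Vehicle 2 was again the highest.

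Among common reference genes, the spread between libraries ran over a wide range. Polr2a, the large subunit of RNA polymerase II, had 76.5 ± 5.44 CPM, a CV of 7.10%, and Ppia had a CV of 8.70%. Gapdh, a glycolytic enzyme with 4457 ± 854 CPM, had a CV of 19.2% and was lowest in Vehicle 2. Actb, cytoplasmic β-actin, had 110 ± 24.1 CPM with a CV of 22%, and B2m, the light chain of class I histocompatibility molecules, 109 ± 63.3 CPM with a CV of 58.1% (SD, n = 4 each).

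The libraries were alike over most genes. Correlations between pairs of libraries over all 12896 genes, on the log2(CPM + 1) scale, were 0.963 to 0.982 across genes, which are not independent replicates. The highest value was that of Vehicle 3 and 4, and the 3 pairs with Vehicle 2 had the lowest values, 0.963, 0.963 and 0.967. As a check for a library deposited more than once, the chi-square of the counts of each pair was divided by its degrees of freedom. It was 15.3 at the lowest, and all 4 were counted as separate samples. Over the 7511 genes with a mean of at least 10 CPM the median CV was 16.8%, and 90% of these genes lay between 5.70% and 44.3%. Counting error alone would give a median CV of about 5.10% at these levels. In genes of 100 to 1000 CPM the median CV was 14.8%, where counting error gives 2.21%. In genes of 1 to 10 CPM it was 30.0%, with 14.9% for counting error. The common biological CV, edgeR's estimate of the spread beyond counting, was 26.7%. It was fitted on all genes with a count, low ones among them, so it does not compare directly with the median CV of the 7511 genes. By level, edgeR's estimate was 42.3% at 1 CPM, 27.1% at 10 CPM, 22.1% at 100 CPM and 23.2% at 1000 CPM. The common value was 22.4% without Vehicle 2, and 26.4% to 28.6% without Vehicle 1, 3 or 4.

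**Figure D4:**
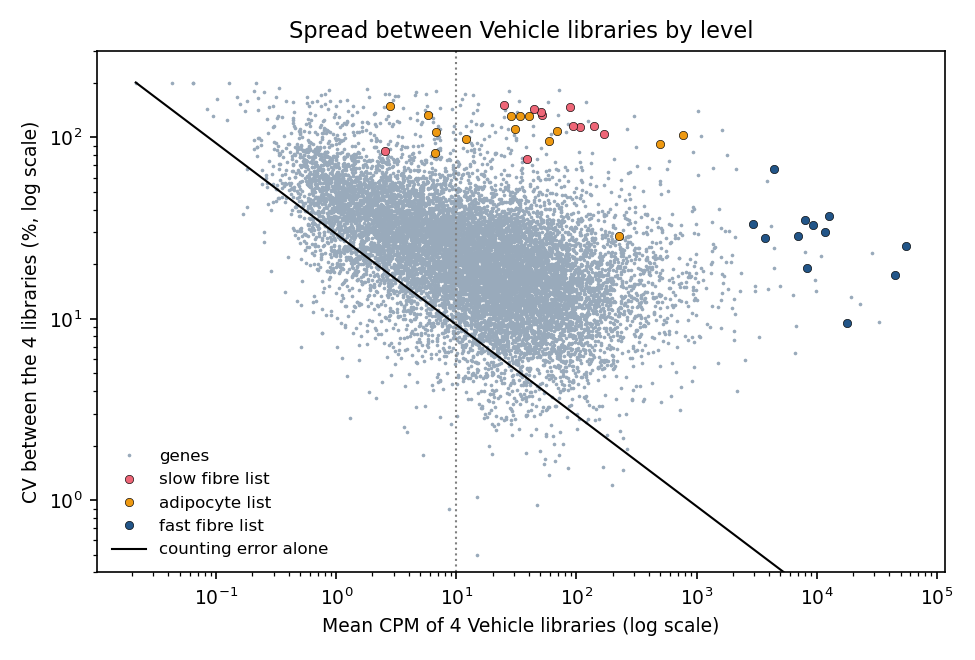
CV between the 4 Vehicle libraries (y axis, percent, log scale) against mean CPM (x axis, log scale), with 1 small point per gene, larger points for members of the fast fibre, slow fibre and adipocyte lists, a black line for counting error alone and a dotted line at 10 CPM. The slow fibre and most of the adipocyte members lie at the top of the cloud, and the fast fibre members lie at the far right with CVs of 9.47% to 67.3%.

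Of the 7511 genes, 1506 had a CV under 10%, 267 a CV over 50% and 56 a CV over 100%. Vehicle 2 was the highest library for 222 of the 267 and 53 of the 56, against 3261 of all 7511 by library totals. Without Vehicle 2, 92 of 7353 genes had a CV over 50% and 16 a CV over 100%. Among the 100 genes with the highest CV, Vehicle 2 was the highest library in 91 and the lowest in 0. All 10 slow fibre genes with at least 10 CPM were among these 100, as were 9 of the 10 adipocyte genes and 3 of the 4 brown adipocyte genes. The base for these counts is 100 of all 7511 genes. The minimum of 10 CPM is on the mean of the 4 libraries, so a gene high in Vehicle 2 can pass through that library alone. Ucp1 and Cidea, among others, did so, with means of 6.31 and 2.91 CPM without Vehicle 2. Library totals place the median gene of Vehicle 2 at 0.10 above and that of Vehicle 3 at 0.11 below the mean of the 4 on the log2 scale. TMM scaling brings these to -0.03 and -0.02, which is small beside the differences described next.

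Slow fibre genes were high in Vehicle 2. The 11 listed slow fibre genes together held 0.0207%, 0.224%, 0.0476% and 0.0311% of the counts of Vehicle 1 to 4, a mean of 0.0810% ± 0.0963 (SD, n = 4). Without Vehicle 2 the mean was 0.0331% ± 0.0135. All 11 were highest in Vehicle 2, by library totals, by TMM and by median-ratio size factors. Of the 7511 genes with a mean of at least 10 CPM, 43.4% were highest there by library totals and 23.9% by TMM. Myh7, the slow myosin heavy chain, had 23.4, 374, 105 and 53.2 CPM in Vehicle 1 to 4. Atp2a2, the slow-fibre calcium pump SERCA2, had 54.6, 436, 111 and 79.3 CPM. Myoz2, which encodes the slow-fibre Z-disc protein calsarcin-1, had 54.7, 286, 34.1 and 49.3 CPM. The slow troponin genes Tnni1, Tnnc1 and Tnnt1, picked once their values were known, were each highest in Vehicle 2 and lowest in Vehicle 1, and Tnni1 had 1.23, 79.8, 14.6 and 3.32 CPM. In this bulk RNA, fewer fibres of a type and less RNA per fibre cannot be told apart.

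Most of the listed fast fibre genes moved the other way. The 12 listed fast fibre genes together held 18.8%, 13.8%, 22.8% and 19.5% of the counts of Vehicle 1 to 4. Of these 12 genes 11 were lowest in Vehicle 2 under each of the 3 scalings, and Myh1 alone was highest there. Vehicle 2 was the lowest library for 15.1% of the 7511 genes by library totals and 32.3% by TMM. The IIa heavy chain gene Myh2 is not in the fast fibre list. It too was highest in Vehicle 2, with 599, 4330, 596 and 1050 CPM in Vehicle 1 to 4. The shares of the 2 lists did not run in strict reverse over the other libraries, since Vehicle 3 had the highest share of fast genes and the second highest share of slow genes.

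Fat cell markers stood high in the same library. The 14 listed adipocyte genes together held 0.0744%, 0.418%, 0.144% and 0.0783% of the counts of Vehicle 1 to 4, and 0.0988% ± 0.0390 on average without Vehicle 2 (SD, n = 3). Adipoq, the hormone adiponectin, had 2.76, 114, 38.1 and 4.42 CPM, and Plin1, the coat protein of the fat droplet, 1.10, 81.2, 27.9 and 3.63 CPM (both picked once their values were known). Fabp4, the fatty acid carrier of fat cells, had 172, 1163, 425 and 223 CPM. By library totals, the order of the libraries from Vehicle 2 through Vehicle 3 and Vehicle 4 to Vehicle 1 was the same for the summed adipocyte and slow fibre lists. By TMM the adipocyte sum was lowest in Vehicle 4, at 767 CPM against 784 CPM in Vehicle 1, while the slow fibre sum was still lowest in Vehicle 1. Of the 14 genes 13 were highest in Vehicle 2 and 1 in Vehicle 3, by library totals and by TMM, and none was at 0 in Vehicle 2. Of the 7511 genes, 43.4% were highest in Vehicle 2 by library totals and 23.9% by TMM. Only 10 of the 14 reached the mean of 10 CPM that all 7511 have. Whether fat tissue in the samples had a part in the other differences was not tested. Car3, a carbonic anhydrase that slow fibres and fat cells both make, is the most abundant gene of the adipocyte list. It had 293, 1949, 498 and 335 CPM in Vehicle 1 to 4, of list sums of 744, 4182, 1438 and 783 CPM. The place of Vehicle 4 above Vehicle 1 in the adipocyte sum by library totals rests on Car3.

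Among the genes with a mean of at least 10 CPM, Ucp1 on chromosome 8, the uncoupling protein by which brown fat makes heat, had the highest CV. It had 0.552, 266, 17.3 and 1.11 CPM in Vehicle 1 to 4, a CV of 183%. Cidea, a fat droplet protein of brown fat, had 0.552, 100, 7.88 and 0.316 CPM. Of the 10 genes with the highest CV, 9 were highest in Vehicle 2, against 43.4% of the 7511 genes by library totals. In 9 of these 9 Vehicle 3 came second. They further include Pck1, the enzyme of glyceride and glucose synthesis, with 2.64, 392, 77.7 and 4.03 CPM, Elovl6, a fatty acid elongase, with 1.17, 34.8, 6.0 and 0.948 CPM, Cdo1, the cysteine dioxygenase of liver and fat, with 3.01, 194, 31 and 5.06 CPM, and Pde3b, the fat cell phosphodiesterase that insulin activates, with 1.90, 49.6, 6.0 and 3.00 CPM. Prkar2b, a regulatory subunit of protein kinase A, had 0.920, 111, 19.5 and 1.90 CPM, and the amino acid transporter gene Slc36a2 and the gene Tmem45b followed the same order of high libraries. The tenth, Gapdhs, the sperm form of glyceraldehyde phosphate dehydrogenase, was high in Vehicle 3 alone, at 42.6 CPM against 2.70, 1.54 and 0.711 CPM in Vehicle 1, 2 and 4.

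**Figure D5:**
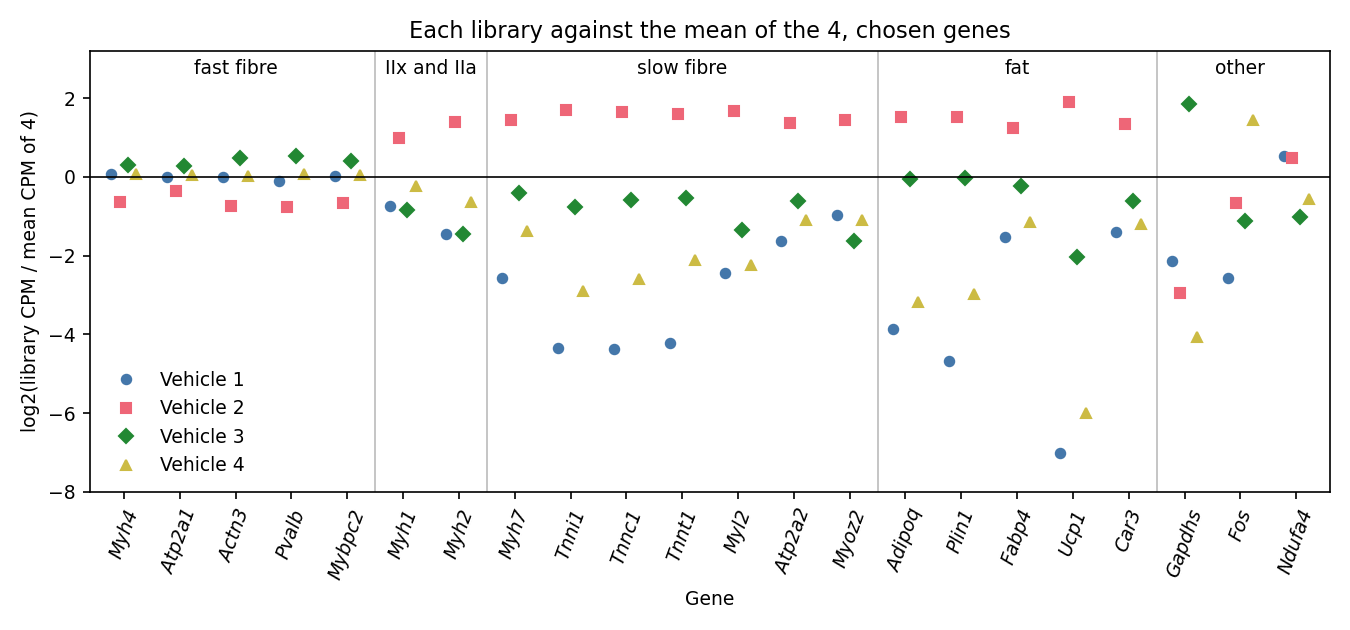
Level of each Vehicle library relative to the mean of the 4 (y axis, log2 of the ratio of CPM) for 22 genes (x axis) grouped as fast fibre, IIx and IIa, slow fibre, fat and other. Vehicle 2 lies lowest for the 5 fast fibre genes and highest for the 14 genes of the next 3 groups, while Gapdhs is highest in Vehicle 3 and Fos in Vehicle 4.

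Other libraries stood apart in smaller groups. Immediate early genes, which cells switch on within minutes of a stimulus, were highest in Vehicle 4 in 14 of 21 cases by library totals and 15 by TMM, against 22.2% and 17.2% of the 7511 genes. Only 10 of the 21 reached the mean of 10 CPM that all 7511 have. Fos had 2.70, 10.1, 7.29 and 43.5 CPM and Egr1 3.25, 10.3, 14.7 and 45.8 CPM in Vehicle 1 to 4 (both picked once their values were known). Nr4a1, the most abundant of the list, had 152, 111, 94.9 and 177 CPM. Heat shock genes were highest in Vehicle 2 in 12 of 16 cases by library totals and 11 by TMM, against 43.4% and 23.9% of the 7511 genes. The inducible Hspa1a, picked once its values were known, had 6.69, 46.4, 4.35 and 2.29 CPM, a level made uncertain by its near-identical neighbour Hspa1b. Extracellular matrix genes were lowest in Vehicle 1 in 22 of 26 cases by library totals and 19 by TMM, against 31.5% and 20.5% of the 7511 genes. Col3a1, a fibrillar collagen chain, had 202, 282, 349 and 424 CPM.

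Circadian clock genes held the steadiest share of the 28 gene lists by library totals, 0.141% ± 0.00353 of the counts (SD, n = 4), a CV of 2.50% by library totals and 8.09% by TMM. The leading members were Tef, a clock output factor with 362 ± 46.3 CPM, Nr1d1, the repressor REV-ERBα with 203 ± 32.5 CPM, and Bhlhe40 with 196 ± 2.37 CPM. Bhlhe40 was also among the 10 genes with the lowest CV. The others of these 10 were Atg14, Suox, Tspyl2, Ctcf, P4hb, Map2k7, Akr1a1, Cwf19l2 and Wdr7, with CVs of 0.496% to 1.65%. Atg14, an autophagy gene, had 14.8, 14.9, 14.9 and 14.9 CPM in Vehicle 1 to 4. Ctcf, the chromatin insulator protein, had 59.4 ± 0.820 CPM and P4hb, a protein disulfide isomerase, 243 ± 3.55 CPM. With 4 libraries and 7511 genes, CVs under that of counting error occur, and 96.0% of the genes lay above it.

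Markers of other cells were low. The endothelial list held 0.0497% ± 0.0135 of the counts, with Pecam1 at 79.3 ± 27.5 CPM, and the smooth muscle and pericyte list 0.0713% ± 0.0105, with Rgs5 at 126 ± 38.7 CPM. The macrophage list held 0.00897% ± 0.00201, led by Mrc1 at 18.3 ± 5.49 CPM, and the satellite cell list 0.00541% ± 0.000622. Hbb-b1, an adult β-globin with the same counts as the overlapping Hbb-bs, which makes its level uncertain, had 74.9 ± 29.1 CPM. The neutrophil marker S100a9 had 0.675, 0.598, 0.118 and 1.5 CPM in Vehicle 1 to 4, and none of the 11 lymphocyte markers was listed. Of 11 listed hepatocyte markers 1 reached a mean of 1 CPM, namely Alb, serum albumin, with 0.245, 6.49, 0.470 and 0.237 CPM in Vehicle 1 to 4. All 11 were highest in Vehicle 2 under each scaling, against 43.4% of the 7511 genes by library totals and 23.9% by TMM. But their median was 0.148 CPM, under the floor of 3 counts in every Vehicle library, and none reached the mean of 10 CPM that all 7511 have. The 11 together summed to 0.797, 11.6, 0.705 and 0.869 CPM in Vehicle 1 to 4, so most of them rest on very few counts. Tendon and Schwann cell markers were also highest in Vehicle 2 in 8 of 9 cases each by library totals and 7 of 9 by TMM, against 43.4% and 23.9% of the 7511 genes. That background is of genes with a mean of at least 10 CPM, which only 4 of the tendon and 3 of the Schwann cell markers reached. Their summed shares were 0.0449% and 0.0177% in Vehicle 2, against 0.0113% to 0.0285% and 0.00607% to 0.00877% in the other 3 libraries. The Y-linked Ddx3y, Eif2s3y, Kdm5d and Uty were present in all 4 libraries, at 150 ± 14.1, 75.2 ± 15, 21.2 ± 3.93 and 20.05 ± 5.90 CPM, and the labels give male mice.

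Abundant genes were unevenly placed on the chromosomes. Chromosome 7 held 7.58% of the listed genes, 8 of the 30 most abundant genes (Atp2a1, Ckm, Tnnt3, Tnni2, Aldoa, Mylpf, Ryr1 and Mybpc2) and 16.9% ± 1.70 of the counts (SD, n = 4). Without the 30 most abundant genes its share of the counts was 6.70%. Chromosome 11, with Myh4, Myh1 and Eno3, held 8.42% of the genes and 13.2% ± 0.914 of the counts.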

How the data were processed

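RNA-Seq was described for the 4 Vehicle quadriceps libraries of the 8 in the series, grouped by the sample titles. Per the paper's methods, the authors made strand-specific SOLiD libraries from poly(A) RNA, discarded low-quality, rRNA and tRNA reads, used bfast to map the rest to mm9 and, separately, to splice junctions, combined both mappings, and used bamutils to obtain reads per RefSeq gene. The deposited raw counts are whole reads per gene and library, with no scaling by the authors. The deposited gene length has no stated definition and was read as the length of all exons. Other deposited columns hold counts scaled by the authors and their own fold changes, p-values and false discovery rates for Folfiri, and were not used. The table lists 12896 genes and none of the mitochondrial chromosome. A total of 21 names had turned into dates and were kept out of the lists. The fewest counts of a listed gene over the 8 libraries were 18, by a filter that is not stated. Listed starts count from 0 and are given from 1.

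CPM used library totals. Counts and rankings of genes by spread used genes with a mean of at least 10 CPM. An SD or CV is also given for some lower genes and for genes of 1 to 10 CPM. Common biological CV was estimated with edgeR 4.0.16 (TMM) in R 4.3.3, and size factors with DESeq2 1.42.0. Other values were computed with Python 3.11.15, pandas 2.3.3 and numpy 2.4.6. The estimate of biological CV, the CV and the gap ratio were tested on simulated data. No test between groups was made. TPM used the deposited length in place of the coding length first planned, since no protein table was used here. Promoter sequences are from RefSeq, GRCm38.p6, matched by symbol to 9608 of the listed genes. Depth limits low genes, and floors of 3 counts cover counting error only.

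The 28 gene lists and 19 cell type lists, and the rule for named genes, were chosen with earlier results of these data known. The rule named the 30 genes with the highest mean CPM, the 3 most abundant of each list, all listed PCR, blot, reference and sex-linked genes, the 10 highest and the 10 lowest CVs and the 10 highest per length, 191 genes in all, of which some are not reported here. Other genes are marked as picked once their values were known. Alternatives were leaving out each library, other scalings, minimums and denominators, pooled counts, medians over libraries, and lengths.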

Additional observations from a re-analysis of the deposited data

Results flagged for a closer look

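Each value below lies in a library whose gap to the nearest of the other 3 passes Dixon's 95% critical share of the whole range of the 4. Chance alone sets apart a library in about 1 in 20 groups of 4. Over all 7511 genes with a mean of at least 10 CPM it held for 447, or 5.95%, by library totals and for 411, or 5.47%, by TMM. It held for 23 of the 191 named genes, with 19 of the 23 highest in Vehicle 2. Of these 23, 9 were named for being among the 10 genes with the highest CV, so the count describes a chosen set. Set apart as highest in Vehicle 2 were Lpl at 2091 CPM, Car3 at 1949, Atp2a2 at 436, Myoz2 at 286, Ucp1 at 266, Cdo1 at 194, Prkar2b at 111, Ppara at 111, Cidea at 100.3, Stat3 at 79.4, Pmp22 at 74.6, Acta2 at 74.1, Pde3b at 49.6, Slc36a2 at 49.2, Tmem45b at 38.4, Elovl6 at 34.8, Gusb at 19.98, Myh6 at 18.3 and Alb at 6.49 CPM. Myod1 was highest in Vehicle 4 at 24.3 CPM and Gapdhs in Vehicle 3 at 42.6 CPM. Rpl3l was lowest in Vehicle 4 at 458 CPM and Cycs, cytochrome c, lowest in Vehicle 3 at 6.35 CPM.

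Of 58 shares and counts looked at, 4 stood apart in the same way. The slow fibre list in Vehicle 2 held 0.224% of the counts, the brown adipocyte list in Vehicle 2 0.0938%, and the hepatocyte list in Vehicle 2 0.00116%. The satellite cell list in Vehicle 1 held 0.00448%, the lowest. The brown adipocyte list is led by Cox7a1, which is also in the list of complexes II to V. Only Cox7a1 of the 9 listed brown adipocyte genes had a mean of at least 100 CPM. The hepatocyte members had a median of 0.148 CPM, under the floor of 3 counts.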

How the results depend on the processing

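Leaving out 1 library at a time gave 99 to 136 genes for 50% of the counts, 24.7% to 27.5% on the 10 most abundant genes, 11922 to 12118 genes at or above 1 CPM, 14.6% to 17.7% for the median CV and 22.4% to 28.6% for the common biological CV. The slow fibre share ran from 0.0331% to 0.101% and the adipocyte share from 0.0988% to 0.213%, both lowest without Vehicle 2. The mean of 22 of the 191 named genes moved by over 1.5 times without 1 library, which was Vehicle 2 for 19 of them. At a threshold of 10 CPM in place of 1 CPM, 7511 genes remained. The median CV was 20.8% with a minimum of 1 CPM and 21.9% with none. By coding length, 19 of the 30 most abundant genes kept their place among the 30 highest.

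Without the 10 most abundant genes, the share of counts was 21.1% for the 6 contraction and energy lists together, 4.19% for the thick filament, 0.718% for the thin filament, 4.64% for the Z-disc, titin and intermediate filament, 4.08% for calcium handling, 6.80% for glycolysis and glycogen, 0.713% for phosphagen and adenylate buffering and 5.94% for the fast fibre list. These changes follow from the genes removed. All other 79 alternatives for these main values moved them by less than the spread between libraries, or counts by less than 1.5 times. No paired analysis was possible because the result comes from no test and only 1 group is described. With 4 libraries and 8505985 counts in the shallowest, genes near 1 CPM rest on few counts.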
